A study of Mus musculus with 2 samples.

Results

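The 8 microRNA genes described here come from 3 clusters that are known for their activity in mouse embryonic stem cells. They are Mir291a, Mir294 and Mir295 of the miR-290 cluster, Mir302a, Mir302d and Mir367 of the miR-302/miR-367 cluster, and Mir17 and Mir92-1 of the miR-17/miR-92 cluster. They were chosen by name, and all 8 had a score, out of 48524 annotated genes and 1227 microRNA genes with one. Replication timing was measured in 46C cells, mouse embryonic stem cells of strain 129P2/Ola kept with leukemia inhibitory factor, with 1 library of an early and 1 of a late fraction of S phase. The cells took up 50 µM BrdU, a thymidine analogue that marks newly made DNA, over 2 h, and propidium iodide staining served to sort them. From 10000 cells of each fraction the BrdU-carrying DNA was recovered with an antibody, amplified as a whole genome and sequenced. Both fractions share the cell line, the culture and the label, with no replicate and no other cell type beside them. Markers of cell type cannot be checked in DNA of this kind. The authors' values are 1 score per genomic position that sets early against late, smoothed over 300 kb. Positive was read as early, since the deposited table is named early against late. This reading is an assumption. The scale and the zero of the score are unstated, and no fold is drawn from it.

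MicroRNAs are short RNAs that guide Argonaute proteins to messenger RNAs, chiefly through the seed, the bases near their 5′ end, and so lower the output of those messages. In mouse embryonic stem cells the miR-290 cluster is known as a main source of microRNAs. A seed that some of them share with miR-302 microRNAs is known for promoting the passage from G1 into S phase. The miR-302/miR-367 cluster is also known from pluripotent cells of the early embryo, and miR-17/miR-92 is known from many dividing cells and tumours. DNA that replicates early in S phase is as a rule rich in genes and open in structure, and DNA that replicates late is mostly poor in genes.

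The mature sequences show how the 3 clusters are related, since the grouping by seed cuts across them. They are RefSeq entries of GRCm38.p6, given 5′ to 3′ with bases 2 to 8, the seed, in capitals. The entries used held no miR-302a-3p, so its seed is not given.
miR-291a-3p: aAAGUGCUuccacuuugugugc
miR-294-3p: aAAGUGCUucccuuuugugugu
miR-295-3p: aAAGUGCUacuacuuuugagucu
miR-302d-3p: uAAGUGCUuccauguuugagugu
miR-17-5p: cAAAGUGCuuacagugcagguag
miR-367-3p: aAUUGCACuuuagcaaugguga
miR-92a-3p: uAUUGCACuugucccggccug
The miR-290 members and Mir302d carry 1 seed, AAGUGCU. The seed of miR-17-5p, AAAGUGC, holds the same core moved by 1 base. Mir367 and Mir92-1, which lie in different clusters, share the seed AUUGCAC.

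Each mature microRNA is cut from a hairpin. The hairpins of Mir302d and Mir92-1 are shown, with the mature strand given above in capitals, because these genes lie in an early and a late region.
Mir302d hairpin: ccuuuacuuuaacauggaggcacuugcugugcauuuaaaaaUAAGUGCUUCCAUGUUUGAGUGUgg
Mir92-1 hairpin: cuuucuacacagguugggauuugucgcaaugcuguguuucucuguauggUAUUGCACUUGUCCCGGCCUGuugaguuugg
The Mir302d hairpin lies at chr3:127545624-127545689 and the Mir92-1 hairpin at chr14:115044427-115044506 (mm10, the coordinates of GRCm38), both on the plus strand.

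The miR-290 and miR-302/miR-367 clusters had early scores and the miR-17/miR-92 cluster had a late one. Mir291a, Mir294 and Mir295 had 1.38, Mir302a, Mir302d and Mir367 had 1.06, and Mir17 and Mir92-1 had -0.56. The clusters span 2.22, 0.58 and 0.836 kb, so all genes of a cluster took the value of 1 position. The 8 genes thus give 3 readings. That of miR-290 was taken 84.8 to 86.7 kb away, at the edge of a gap without positions. With 1 library per fraction there is no experimental error for any reading, and no test was possible. Of the 8 members 6 lay above 0, or 2 of 3 clusters. Among all microRNA genes the share above 0 was 74.7%, and among microRNA loci, with genes within 10 kb counted once, it was 78.2%. It was 73.5% among protein-coding genes and 43.1% among all positions. The share of members is near that of microRNA genes, so nothing is read from it about the members. With the zero moved to the autosomal median of -0.30, the same 6 members lay above it, against 82.9% of microRNA genes and 78.5% of protein-coding genes.

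Within the range of microRNA genes the members lay in the middle or low. The score of the miR-290 members, read at the edge of a gap, was above that of 62.3% of microRNA genes and 64.9% of protein-coding genes. The miR-302/miR-367 members were above 50.5% of microRNA genes, and the miR-17/miR-92 members above 14.0%. Against all positions of the genome the 3 scores were above 87.1%, 78.9% and 45.0%. All microRNA genes together had a median of 1.04 (quartiles -0.02 and 1.55), close to the 1.02 of protein-coding genes.

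**Figure D1:**
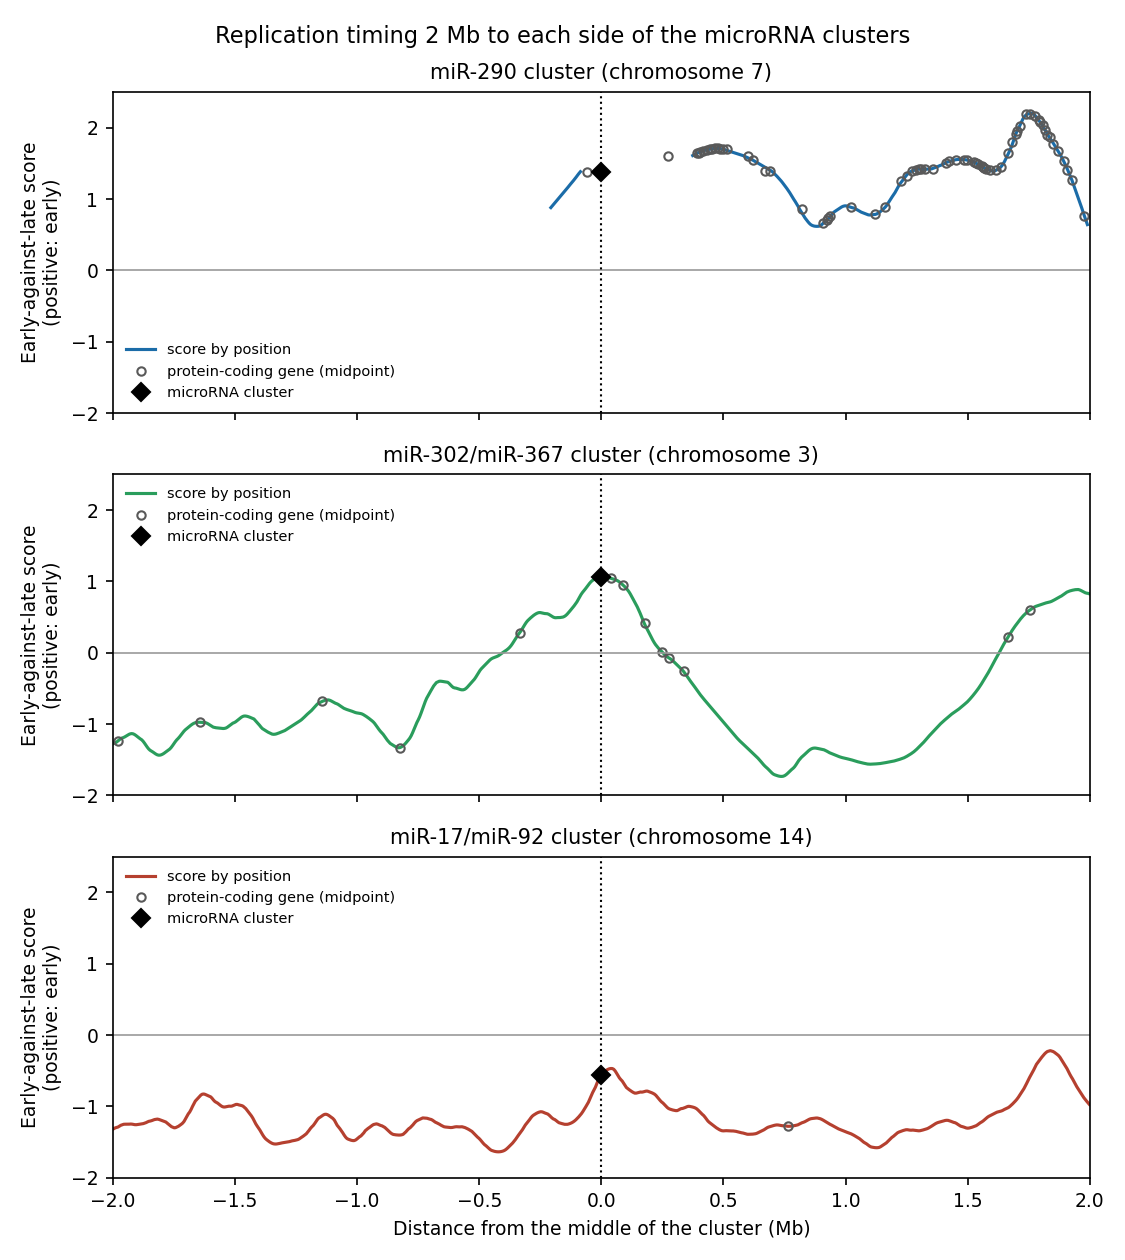
Score by position (lines) up to 2 Mb to each side of the miR-290, miR-302/miR-367 and miR-17/miR-92 clusters; the x axis is the distance from the middle of the cluster in Mb and the y axis the early-against-late score, positive for early. Diamonds mark the clusters at 1.38, 1.06 and -0.56 and open circles protein-coding genes at their midpoints; the break in the upper line is a gap of 459.8 kb without positions, and the line starts 206.7 kb below the cluster.

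The miR-290 cluster lies near the lower end of chromosome 7 in an early and gene-rich region, but in a gap of the data. It holds 9 microRNA genes at chr7:3218626-3220841, overlaps the long noncoding RNA gene D7Ertd143e, and lies, but for its first bases, within the span of Nlrp12, a gene of innate immunity. No position of the table fell between 3134134 and 3593973, a gap of 459.8 kb. The value 1.38 was therefore read 84.8 kb from Mir291a, 86.5 kb from Mir294 and 86.7 kb from Mir295. The first position beyond the gap had 1.61, and a straight line across it gave 1.42 at Mir291a and 1.43 at Mir294 and Mir295. The scores on the flanks of the gap are thus both early, and what lies between them was not measured.

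On the lower side only 8 positions remained before the first one of the chromosome, 206.7 kb away, where the score was 0.88. They formed a run of 121.1 kb, too short to count as a domain of at least 300 kb. On the higher side an early domain ran from 3593973 to 5261465 (1.67 Mb, median 1.42). All 217 positions within 2 Mb lay above 0, against 43.1% of positions in the genome. The 69 protein-coding genes with a score took theirs from these positions, so all of them lay above 0 as well. Their median was 1.54, and 73.5% of protein-coding genes in the genome lay above 0. The nearest protein-coding gene on the lower side, AU018091, took the same position as the cluster. The nearest on the higher side, the membrane protein gene Myadm, lies inside the gap and had no position within 100 kb. The lowest of the 69 genes was Ttyh1, which encodes a chloride channel, at 0.66, and the highest was the kinase gene Sbk3 at 2.19. The splicing factor gene Prpf31 (1.67) and the ribosomal protein gene Rps9 (1.71) lie nearer to the cluster, on the plateau that begins beyond the gap.

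The miR-302/miR-367 cluster stood at the top of an early peak with late DNA on both sides. Its 5 genes lie at chr3:127545228-127545807 inside Larp7, which encodes a protein of the 7SK RNA complex, and inside the long noncoding RNA gene Gm51018. The members were 2.51 to 2.75 kb from the position that gave their value. The score was -0.84 at 1000 kb below the cluster, -0.49 at 600 kb, 0.50 at 200 kb and 1.06 at the cluster. Beyond it the score was 0.25 at 200 kb, -0.57 at 400 kb and -1.35 at 600 kb. The highest position within 300 kb, 1.061, was 9.29 kb from the middle of the cluster, well within the smoothing width. It stood 2.39 above the higher of both flanking minima, which were -1.33 at 830.4 kb below and -1.73 at 739.3 kb above the cluster. At the middle of this height the peak was 759 kb wide.

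This early domain ran from 127152431 to 127796392, a length of 0.644 Mb with a median of 0.56. Of 715 early domains of the genome 474 were longer and 240 shorter. Late domains of 3.66 Mb (median -1.15) and 1.37 Mb (median -1.31) lay next to it. Of 631 positions within 2 Mb of the cluster 26.8% were above 0, against 43.1% of positions in the genome, and the window median was -0.84. A second early stretch began 1.62 Mb above the cluster.

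The genes along the peak took their scores from the same profile, so they follow its shape by construction. Ank2, which encodes an ankyrin that anchors membrane proteins, had 0.28 on the lower side, 334.5 kb from the cluster at its midpoint. Larp7 had 1.06, Zgrf1 1.04 and the proneural transcription factor gene Neurog2 0.95. The kinase gene Alpk1 (0.41) and the signalling adaptor gene Tifa (0.0045) lie farther along, and Ap1ar had -0.08. Of 14 protein-coding genes within 2 Mb 8 lay above 0, with a median of 0.11, against 73.5% of protein-coding genes in the genome above 0. Larp7 was the highest and Camk2d, a calcium-dependent kinase gene, the lowest at -1.33. The peptidase gene Enpep, in the second early stretch, had 0.60. Because the smoothing width is 300 kb, Larp7, Zgrf1, Neurog2 and the microRNA genes do not give separate measurements.

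The miR-17/miR-92 cluster was late, yet less late than most of the DNA around it. Its 6 genes lie at chr14:115043671-115044506, the last of them inside the host transcript gene Mir17hg as annotated, and outside every protein-coding gene. The members were 0.588 and 1.34 kb from the position that gave -0.56. None of the 593 positions within 2 Mb was above 0, against 43.1% of positions in the genome, and the window median was -1.24. The score was -1.62 at 400 kb below the cluster, -1.16 at 200 kb, -0.56 at the cluster, -0.80 at 200 kb above and -1.39 at 600 kb above.

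The top of this rise was -0.47, at position 115083636, 39.5 kb above the middle of the cluster. It stood 0.94 above the higher flanking minimum, and its width at the middle of this height was 282.1 kb. That width is near the smoothing width of 300 kb, so a narrower feature could have the same shape. The top lies 8.57 kb from Gpc5, a glypican gene whose midpoint, 764.6 kb from the cluster, had -1.28. Gpc5 was the only protein-coding gene with its midpoint within 2 Mb. The next one on the lower side, the neuronal membrane protein gene Slitrk5, was 3361 kb away and had -1.55.

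The late domain around miR-17/miR-92 was the second longest of 771 in the genome, with 12.02 Mb. The cluster lies 9027 kb from its lower edge and 2989 kb from its higher edge. Of its 1787 positions 95.8% had a lower score than the cluster, the median being -1.20 (quartiles -1.32 and -1.04). Local rises with a prominence of at least 0.3 were counted after the values were seen, and there were 15. That at the miR-17/miR-92 cluster ranked second by score and by prominence (1.11), the drop to the higher of the lowest points before a higher score or the domain edge on either side. The first reached -0.22 and lies 42.3 kb from Gpc6, another glypican gene, and the third reached -0.78, 585.7 kb from the nearest protein-coding gene, Slitrk6. The domain held 7 protein-coding genes and 7 microRNA genes, the 6 of this cluster and Mir6239.

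**Figure D2:**
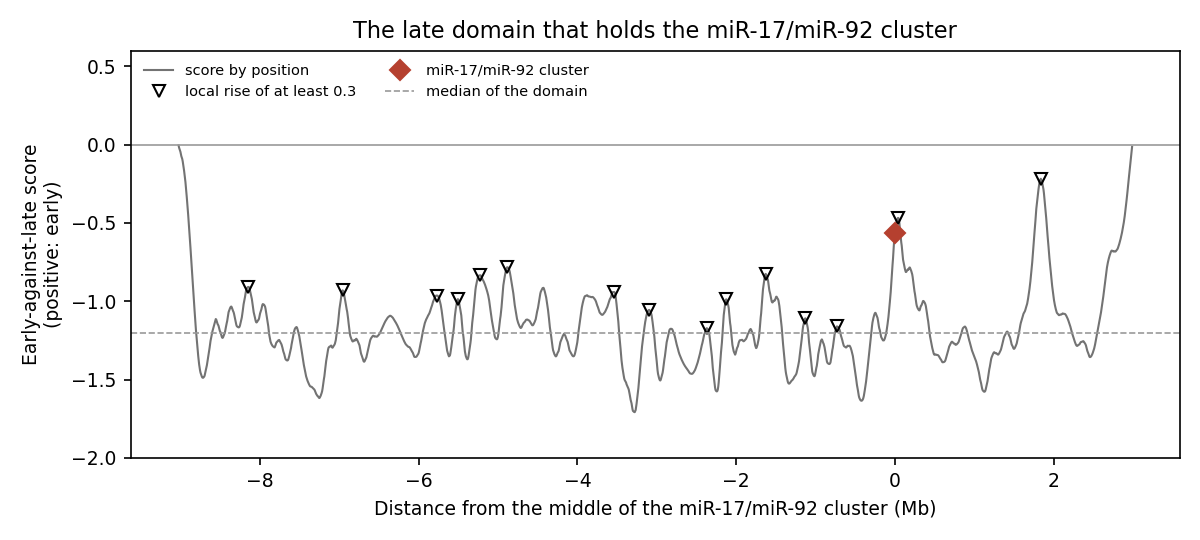
Score by position across the 12.02 Mb late domain on chromosome 14, against the distance from the middle of the miR-17/miR-92 cluster in Mb. The diamond is the cluster at -0.56, triangles mark the 15 local rises of at least 0.3, and the dashed line is the domain median of -1.20; the rise at the cluster is the second highest.

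Places with the nearest profile were looked up for each cluster, and a nearest one always exists. For each cluster the profile was read every 100 kb up to 2 Mb to each side. It was compared with that around protein-coding genes over 5 Mb away, 18536 to 19626 of them by cluster. The 2 genes named for each cluster were also required to lie over 5 Mb from each other. The likeness is the root mean square difference in score. For miR-302/miR-367 the closest were Mbtps2 on chromosome X, which encodes a membrane-bound protease, at 0.38, and Kyat3 on chromosome 3, an aminotransferase gene, at 0.40. The median over 18536 genes was 1.55. Mbtps2 itself had 1.10 and Kyat3 0.41, against 1.06 at the cluster. For miR-17/miR-92 the closest were 4931408C20Rik on chromosome 1 (0.293) and the receptor gene Lrp1b on chromosome 2 (0.295), against a median of 1.79. These genes had -1.24 and -1.28, against -0.56 at the cluster, so neither was as high at its centre. For miR-290 only 22 of the 41 points had a value. Some of these lie in the gap or below the first position of the chromosome, up to 100 kb from a measured position. The closest for miR-290 were the actin-binding coronin gene Coro2b (0.24) and the syndecan gene Sdc4 (0.26), against a median of 1.40. Coro2b had 1.06 and Sdc4 1.35, against 1.38 at the cluster. These are descriptions of 1 pair of libraries.

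The miR-17/miR-92 cluster differed in sign from both of its paralogues, related clusters that both carry the seeds of miR-17 and miR-92. The seeds of miR-18 and miR-19 were found in miR-106a/miR-363 and not among the miR-106b/miR-25 sequences used here. The miR-106b/miR-25 cluster, with 3 genes at chr5:138165321-138165818 inside the helicase gene Mcm7, had 1.28. The miR-106a/miR-363 cluster, with 6 genes at chrX:52741693-52742567, had 1.45. The first lies in an early domain of 7.16 Mb with 162 protein-coding genes. The second lies in one of 1.74 Mb with 9, at a local top of 1.45 that was 3.74 kb from its middle. All 620 positions within 2 Mb of miR-106b/miR-25 were above 0, as were 55.6% of those around miR-106a/miR-363. Over the whole genome 43.1% of positions lay above 0. Each cluster is again 1 reading, so the difference between them has no error and was not tested.

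Grouped by seed, the genes that share a seed with miR-17 or miR-92 were early except those in the miR-17/miR-92 cluster itself. Among all microRNA genes 74.7% lay above 0, and 78.2% of microRNA loci. The groups are small and near these shares, so nothing is read from their counts. The seed AAGUGCU was carried by 5 genes in 2 loci, Mir291a, Mir294, Mir295, Mir302b and Mir302d, all in the 2 early clusters. The seed AAAGUGC was carried by 7 genes in 4 loci, and 5 of them lay above 0. Mir17 and its neighbour Mir20a had -0.56, Mir6383 0.97, Mir93 and Mir106b 1.28, and Mir20b and Mir106a 1.45. The seed AUUGCAC was carried by 7 genes in 6 loci, and 6 of them lay above 0. Mir92-1 had -0.56 and Mir367 1.06, while Mir25 had 1.28, Mir32 1.31, Mir92-2 and Mir363 1.45 and Mir92b 1.80. The same mature miR-92a-3p is annotated at Mir92-1, in a late region, and at Mir92-2, in an early one. Seed groups were formed from the mature sequences in the RefSeq table used here, which is not complete. It holds no miR-302a-3p, so the member Mir302a could not be placed in or out of the AAGUGCU group.

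**Figure D3:**
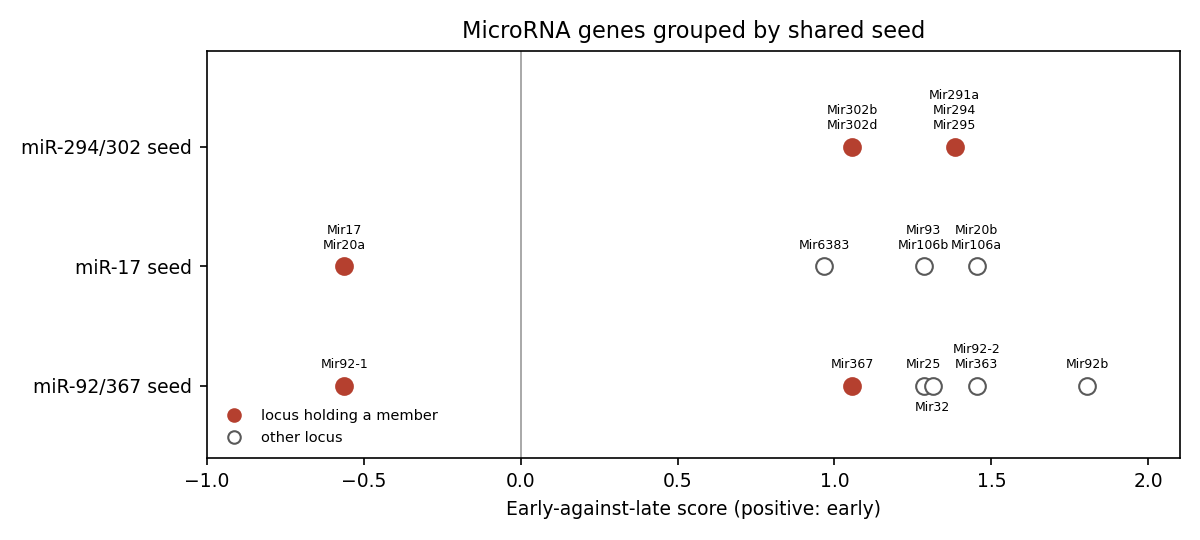
Early-against-late score (x axis, positive for early) of microRNA genes that share a seed, in 3 rows for the seeds of miR-294 and miR-302, of miR-17, and of miR-92 and miR-367. Each circle is 1 locus with its genes named, filled where it holds a member; the loci left of 0 are those of Mir17 with Mir20a and of Mir92-1, at -0.56.

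The genes that make microRNAs and act with them were almost all early. Of 20 genes of microRNA processing and silencing 19 lay above 0, with a median of 1.46, against 73.5% of protein-coding genes above 0 and their median of 1.02. Dgcr8 (1.88) encodes the partner of the nuclear processing enzyme Drosha, and Xpo5 (1.78) encodes the exporter of precursors. Drosha itself had 0.94 and Dicer1, the gene of the cytoplasmic processing enzyme, 1.07. The Argonaute genes Ago1 (1.75), Ago3 (1.52) and Ago4 (1.76) are neighbours on chromosome 4, and Ago2 on chromosome 15 had 1.40. Ago1, Ago3 and Ago4 lie within the smoothing width of 300 kb, so they do not give separate measurements. The lowest were the RNase gene Dis3l2 (0.34) and Lin28b, at -0.18. Lin28b encodes a blocker of let-7 processing. Its paralogue Lin28a had 1.44.

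Genes known as targets of these microRNAs lay on both sides of 0. Of 15 listed genes 13 lay above 0, with a median of 1.22, against 73.5% of protein-coding genes and their median of 1.02. With 15 genes the count is near that background, and nothing is read from it about targets. The highest were E2f1 (1.69), a transcription factor gene of S phase entry that is known as a miR-17 target, and the Hippo pathway kinase gene Lats2 (1.60). Cdkn1a, which encodes the cell cycle inhibitor p21, had 1.495, and the cell cycle repressor gene Rbl2 had 1.48. The lowest were Tgfbr2, a receptor gene of TGF-beta signalling, at -1.03, and the nuclear receptor gene Nr2f2 at -0.06.

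The let-7 family and a list of lineage microRNAs had shares above 0 near those of all microRNA genes and loci. Of 12 let-7 family genes, known to rise as stem cells differentiate, 10 lay above 0, against 74.7% of all microRNA genes, with a median of 1.02. Counted by locus they were 6 of 8, against 78.2% of all microRNA loci. Mirlet7g (1.73) and Mirlet7c-2 (1.23) were the highest, and Mirlet7c-1 (-1.42) and Mirlet7a-2 (-1.01) the lowest. Of 34 genes listed as lineage microRNAs, some of them known from more than 1 lineage, 28 lay above 0, with a median of 1.51, or 22 of 27 loci. Mir143 and Mir145a, neighbours known from smooth muscle, both had 1.89, and the lowest were the neuronal Mir128-2 (-1.56) and Mir124a-2 (-1.12). Copies of one microRNA lay far apart, since Mir124a-1 had 1.35 and Mir124a-3 1.48.

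**Figure D4:**
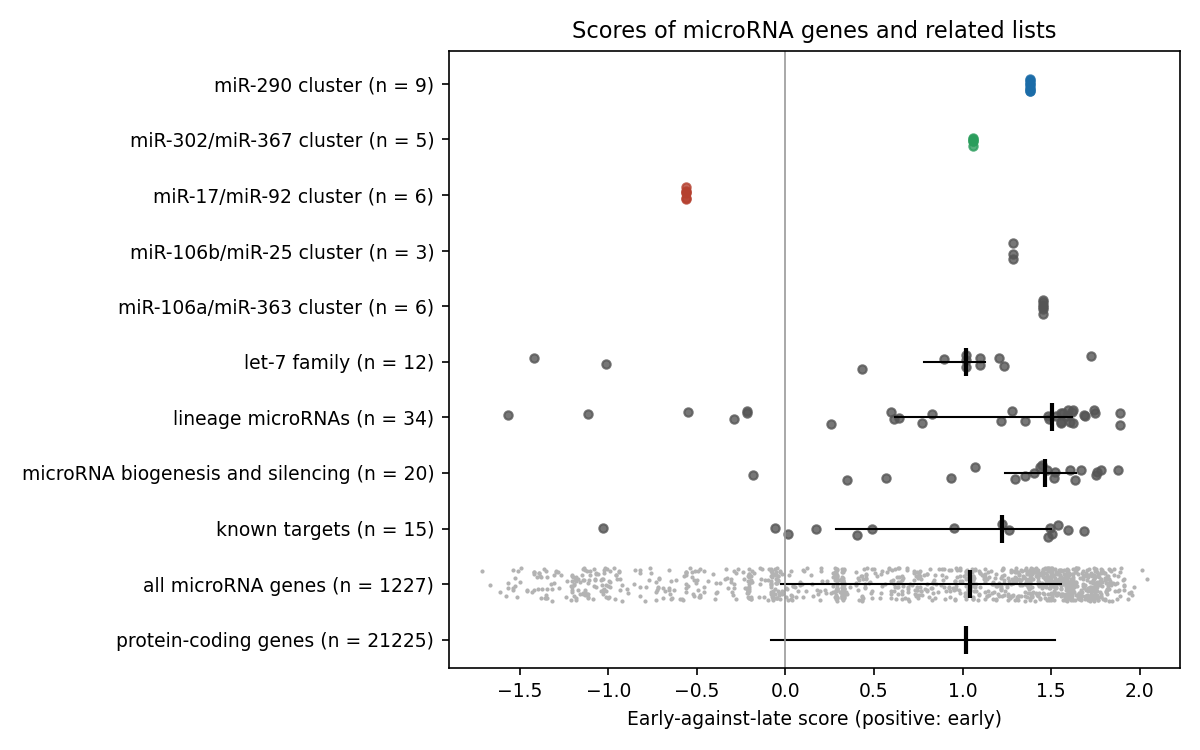
Early-against-late score (x axis) of each gene in the 3 stem cell clusters, their 2 paralogous clusters and 4 lists, above all 1227 microRNA genes and 21225 protein-coding genes. Points are genes, and the row of protein-coding genes has no points. Bars run between the quartiles and ticks mark the median where a row has a bar. Points of 1 cluster coincide in score because they share a position, and the miR-17/miR-92 cluster is the one cluster of the 5 left of 0.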

How the data were processed

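DNA labelled with BrdU was sequenced from early and from late S phase of 46C cells, 1 library each. Alignment was with Bowtie2 to mm10, as the submitters' processing notes list them. The authors deposited a score made from both libraries and smoothed over 300 kb. Read counting, scaling and log base are unstated, and with the depth unknown no counting interval is given. Of 384798 positions 4 had no value, and the median spacing was 5778 bp. Unused columns of per-sample values numbered 0.

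Each gene was given the score at the position closest to its midpoint, within 100 kb, with coordinates from RefSeq for GRCm38.p6. Entries with scaffold coordinates, 348 in number, were left out. All 110 listed genes had a place, 2 through an older symbol. A domain was a stretch of at least 300 kb with one sign and no gap over 300 kb. Peak height was measured over the higher of the lowest scores within 1 Mb on either side of the top. Python 3.11.15, numpy 2.4.6, pandas 2.3.3 and scipy 1.17.1 were used, and the steps were tested on simulated data. The members, lists and alternatives were chosen with earlier results of these data known. Added later were the reading beyond the gap and the split of microRNA genes inside and outside protein-coding genes, with its alternatives. Named genes were all genes of the 5 clusters, the nearest, highest and lowest neighbours, those with the closest profiles, and the 2 highest and 2 lowest of each list. Other neighbours and list genes were named after their values were seen. Some genes counted in their lists are not reported here by name.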

Additional observations from a re-analysis of the deposited data

How the results depend on the processing

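The 18 results were recomputed under 83 alternatives, and none changed sign or moved a share by more than 1.5 times. With the zero at the autosomal median, Mir291a, Mir294 and Mir295 had 1.69, Mir302a, Mir302d and Mir367 had 1.36, and Mir17 and Mir92-1 had -0.26. The median of positions within 150 kb was 0.946 for Mir302a, Mir302d and Mir367, -0.766 for Mir17 and -0.766 for Mir92-1, which takes in their flanks. The first position beyond the gap gave 1.61 for Mir291a, Mir294 and Mir295, which had no position within 50 kb. A distance limit of 20 kb removed these 3 genes and left 60% of members above 0. The domain of miR-302/miR-367 was 0.845 Mb and that of miR-17/miR-92 10.7 Mb at the autosomal median. There Lin28b had 0.12 and Nr2f2 0.25, above the moved zero. No paired analysis was possible because each fraction had 1 library, which together gave 1 score. The depth of the libraries is unknown, and what it limits cannot be stated.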

Other observations

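The stem cell clusters are 3 of the 10 loci in the genome with 5 or more microRNA genes, each within 10 kb of the next, and the medians of these loci ranged from -1.18 to 1.45. The latest was a locus of 19 genes on chromosome X from Mir743 to Mir465 (66776757 to 66839125), with a median of -1.18, and miR-17/miR-92 was the next. The imprinted region of chromosome 12 held 2 of these loci, 16 genes from Mir770 to Mir136 at -0.21 and 39 genes from Mir379 to Mir3072 at -0.07, both near 0. The locus with the most genes, 72 from Mir466m to Mir669h on chromosome 2, had 0.32. The 3 earliest were miR-302/miR-367 at 1.06, miR-290 at 1.38 and miR-106a/miR-363 at 1.45. Loci were counted after the values were seen.

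MicroRNA genes inside and outside protein-coding genes had different shares of early scores. Of 824 that lie wholly within the span of a protein-coding gene, as the miR-302/miR-367 genes do, 699 (84.8%) were above 0, with a median of 1.22. Of the 403 others, 218 (54.1%) were above 0, with a median of 0.27. Among these others are both the late miR-17/miR-92 genes and the early miR-106a/miR-363 genes. Counted by locus the shares were 575 of 676 (85.1%) inside and 166 of 271 (61.3%) outside. A locus with genes of both kinds, such as miR-290, is counted on both sides. With the zero at the autosomal median they were 89.8% and 68.7% of genes, inside and outside. Both alternatives were chosen after seeing the data. Genes of a cluster share a position, so these are not independent counts, and no test was made.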
